A study of Saccharomyces cerevisiae with 12 samples.

Results

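Nascent transcription was compared between budding yeast held for 120 min in Congo Red and the same kind of culture at 0 min. The cells of both groups were BY4741, a wild-type laboratory strain of Saccharomyces cerevisiae, grown at 24 °C in the rich glucose medium YEPD. The group at 120 min had been in Congo Red at 30 µg/ml, a dose labelled sublethal, for that time, and the group at 0 min was the start sample. Each group was 1 of the 12 samples of the series and held 3 replicate arrays, so the comparison used 6 of the 36 arrays. The series holds no culture without the dye after 0 min, so an effect of Congo Red and an effect of time in culture cannot be told apart. Whether the 3 replicates were grown separately is not stated in the labels, so every p-value below rests on array-to-array spread that may be technical. Per the labels, the volume of culture taken was set by the size of the cells.

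Of the 6144 spots on an array, 5147 were members of the comparison, because at least 2 of the 3 arrays at each of 120 and 0 min gave them an intensity above 0. All 6 values were present for 5045 of them. No file names the gene on a spot, and 0 spots matched the 6477 genes of the reference table. Spots are therefore given by block row (R), block column (C) and printing position within the block, no gene is named, and the strain and its response could not be checked by marker genes.

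Genomic run-on measures transcription while it happens. Cells are permeabilised with a detergent, their own nucleotides are lost, and RNA polymerases already on a gene extend their transcripts with a labelled nucleotide, here 33P-UTP, so the label on a spot follows the number of polymerases engaged on that gene. Congo Red binds chitin and disturbs the building of the yeast cell wall. Such damage is known to be sensed at the cell surface and passed through the cell wall integrity pathway to the MAP kinase Slt2 and the transcription factor Rlm1, which raises transcription of genes for wall proteins and wall-building enzymes. Each signal here comes from a whole culture, so fewer cells carrying a transcript and less of it per cell cannot be told apart.

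Before any normalisation the arrays at 120 min summed to intensities of 826436, 1465250 and 1269070, and those at 0 min to 540338, 1091300 and 633802. The groups overlapped, since the second array at 0 min was brighter than the first at 120 min. The mean total was 1.57 times higher at 120 min, but the exact two-sided permutation test of 3 against 3 arrays gave p = 0.2, and the smallest p that it allows is 0.1. Replicate arrays correlated between 0.948 and 0.959 across spots at 120 min and between 0.918 and 0.964 at 0 min, and arrays of different times between 0.883 and 0.946. Quantile normalisation made the arrays comparable and removes any change that all spots share. Changes below are therefore log2 differences relative to the typical spot, and without normalisation the median of all spots lay 0.65 higher at 120 min on the log2 scale.

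Transcription of 39 spots had risen at 120 min and that of 8 had fallen (limma's moderated test over 18 nascent arrays, adjusted p under 0.05). These were 0.758% and 0.155% of the 5147 spots tested. The risers had a median change of 1.15, which is 2.22-fold, and ranged from 0.61 to 2.73. For the fallers the median was -1.32, a 2.49-fold decrease, and the range was -2.19 to -0.81. In all 39 risers and all 8 fallers the 3 arrays at 120 min lay on 1 side of the 3 at 0 min, but such separation was common. The arrays at 120 min lay wholly above those at 0 min for 624 spots, or 12.1%, and wholly below for 591, or 11.5%. The count rested on single arrays. The risers numbered 17 without the second array at 120 min, 17 without the third, 19 without the first, 17 without the first at 0 min, 19 without the second and 53 without the third. In the same order of arrays the fallers numbered 1, 1, 7, 1, 2 and 8. A fit of the 6 arrays alone, with no other time to estimate the spread, called 9 risers and 0 fallers, with 876 spots at an unadjusted p under 0.05.

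The changes of all spots centred near 0. The median change of all 5147 was 0.02, and their quartiles were -0.23 and 0.25. An unadjusted p under 0.05 was reached by 763 spots, 403 higher and 360 lower at 120 min, so nearly as many leaned down as up while the calls were mostly rises. At the median standard error a change needed a size of 1.14, or 2.21-fold, to pass, and the smallest change called was 0.61, or 1.52-fold. Changes over 1 were measured for 166 spots, of which 27 were called, and changes under -1 for 140, of which 6 were called. Of the 39 risers, 6 exceeded 2, 21 lay between 1 and 2, and 12 were under 1.

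**Figure D1:**
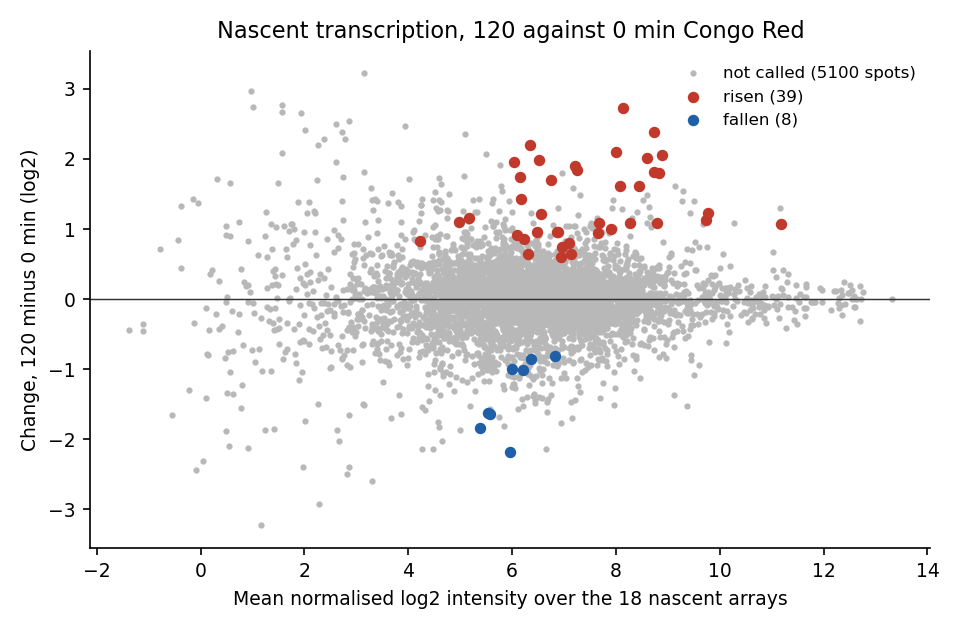
Change in nascent signal at 120 minus 0 min (log2, vertical axis) for each of the 5147 spots against its mean normalised log2 intensity over 18 nascent arrays (horizontal axis), with the 39 risers in red, the 8 fallers in blue and the others in grey. The risers lie mostly at middle and high signal, and the widest grey scatter lies at low signal, where few spots were called.

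Ranked by mean signal over the 18 nascent arrays, the risers' median was at percentile 69.7, with a range of 10.96 to 98.87. That mean includes the arrays at 120 min on which the spots were chosen. The choice itself therefore raises the rank of risers and lowers that of fallers. In the authors' deposited table, described below, the median synthesis rate at 0 min was 0.083 for risers, 0.0995 for fallers and 0.0778 for all spots. With the spots split by mean signal into 4 equal bins from the dimmest to the brightest, 3, 7, 12 and 17 had risen and 0, 7, 1 and 0 had fallen. The median standard error of a change was 0.351 in the dimmest bin and 0.236 in the brightest, so a change had to be larger to pass among dim spots. The 39 risers together took 1.504%, 1.457% and 1.483% of all intensity on the arrays at 120 min, against 0.512%, 0.591% and 0.650% on those at 0 min. The 8 fallers took 0.0411%, 0.0331% and 0.0348% at 120 min, against 0.0861%, 0.0924% and 0.0891% at 0 min. These shares need no normalisation between arrays, but the spots were chosen for the same contrast, so the shares only describe their size.

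Spot R4 - C2 : 8 had the largest called rise. Its deposited intensity was 471, 845 and 617 on the arrays at 120 min, against 40.0, 95.7 and 61.5 at 0 min. Every array at 120 min was several times brighter than every array at 0 min. After normalisation its log2 signal was 9.14 ± 0.14 at 120 min and 6.42 ± 0.13 at 0 min (SD, n = 3 arrays each). The change was 2.73 ± 0.14 (SE), or 6.63-fold, with a limma adjusted p of 2.33e-08. It was called in all 23 alternative settings, with changes between 2.49 and 3.34.

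Spot R15 - C1 : 7 was the second. It measured 709, 919 and 1141 at 120 min, against 64.2, 190 and 114 at 0 min, again with no overlap. Its normalised log2 signal was 9.69 ± 0.31 at 120 min and 7.30 ± 0.23 at 0 min (SD, n = 3 arrays each). The change was 2.39 ± 0.33 (SE), or 5.24-fold, with a limma adjusted p of 0.00271. It was called in 22 of 23 settings and missed only when the arrays were not normalised to each other, with an adjusted p of 0.121.

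The largest falls were smaller and less even between arrays. Spot R8 - C20 : 3 measured 43.9, 32.5 and 23.0 at 120 min, against 74.2, 152 and 77.7 at 0 min. Its normalised log2 signal was 4.87 ± 0.85 at 120 min and 7.06 ± 0.18 at 0 min (SD, n = 3 arrays each), so the arrays at 120 min differed far more among themselves. The change was -2.19 ± 0.42 (SE), a 4.56-fold decrease, with a limma adjusted p of 0.0228. Spot R7 - C7 : 3 measured 26.5, 23.9 and 22.2 at 120 min, against 49.2, 101 and 37.4 at 0 min. The change was -1.85 ± 0.40 (SE), a 3.59-fold decrease, with a limma adjusted p of 0.0472, just inside the threshold. The calls of these fallers held in 16 and 15 of 23 settings. The sign held in all, which the lack of overlap between the arrays largely fixed in advance.

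**Figure D2:**
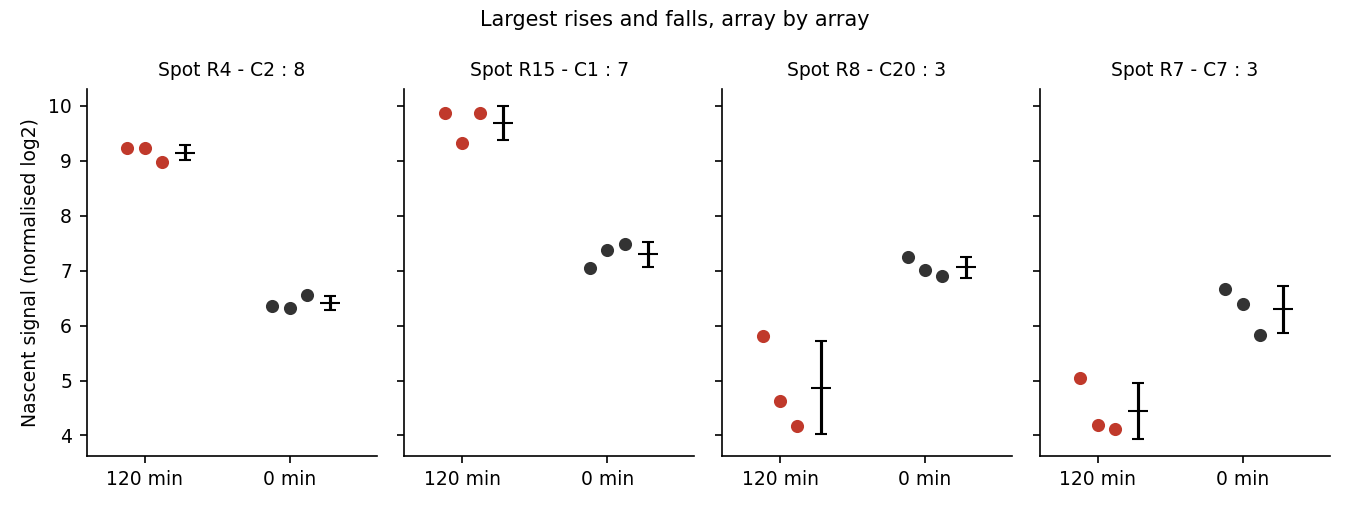
Normalised log2 nascent signal of the 2 spots with the largest called rises and the 2 with the largest called falls, 1 point per array, with 120 min left of 0 min and the mean ± SD of 3 arrays beside the points. Spot R4 - C2 : 8 shows tight groups about 2.73 apart, and spot R8 - C20 : 3 shows a spread of 0.85 (SD) at 120 min against 0.18 at 0 min.

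Both of the largest fallers sit at printing position 3, and that position as a whole was lower at 120 min. The median change of the 335 spots tested at position 3 was -0.70, and 86.6% of them were below 0. The medians of the other 15 positions lay between -0.08 and 0.14. Relative to all spots of an array, the median of position 3 was -0.30, -0.67 and -0.89 on the arrays at 120 min, against 0.10, 0.05 and -0.08 at 0 min. Of the 8 fallers 4 were at position 3, as were 89 of the 140 spots with a change under -1. The mRNA files, deposited separately, also had position 3 low, with a median of -0.64 over 328 spots. In mRNA the medians of the other 15 positions lay between -0.27 at position 6 and 0.13 at position 8. Whether the same printed arrays were used for both assays is not stated. There the median of position 3 was -0.55, -0.76 and -0.90 at 120 min, against -0.25, -0.11 and -0.44 at 0 min.

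The offset also differed between arrays of 1 time. At 180 min position 3 was at -0.59 and -0.87 on the first and second nascent arrays and at 0.01 on the third. Spot R7 - C7 : 3 followed the same order there, with log2 signals of 4.51, 4.29 and 5.97, as did R8 - C20 : 3 with 5.57, 4.69 and 6.11. At 240 min, where position 3 was at -0.68, -0.07 and -0.07, the first array was lowest for R7 - C7 : 3 at 5.15, 5.37 and 5.83, but the second was lowest for R8 - C20 : 3 at 5.89, 5.02 and 6.15. On the mRNA arrays position 3 was at -0.97, -0.91 and -0.20 at 180 min and at -1.17, -0.03 and -0.27 at 240 min, so the array numbers with a low position 3 at these times were the same in both assays. The assays are thus not independent in this respect. What set this offset, and its part in the falls, was not tested.

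Rises were also uneven over the array. The median change by block row was 0.32 in row 1 and 0.22 in row 2, and reached -0.13 in row 15. By block column it was 0.27 in column 1 and -0.17 in column 23. Signal in rows 1 to 4 minus that in rows 13 to 16 was -0.18, -0.02 and -0.04 at 120 min, against -0.20, -0.27 and -0.30 at 0 min, so this gradient was weaker on 2 of the arrays at 120 min. Of the 39 risers, 19 lay in rows 1 to 4, which held 25.9% of the tested spots, and 19 in columns 1 to 6, which held 25.1%. Both of the largest risers lie in columns 1 and 2.

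**Figure D3:**
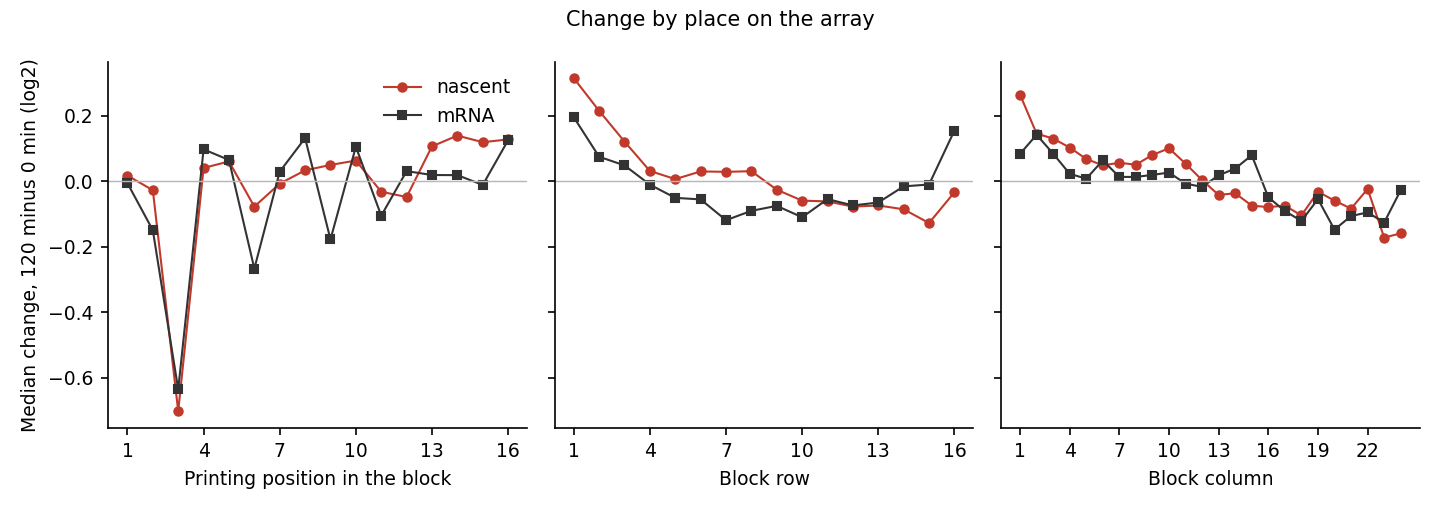
Median change at 120 minus 0 min (log2) over the spots at each printing position, block row and block column, for nascent arrays (red circles) and mRNA arrays (black squares). Position 3 sits at -0.70 in nascent and -0.64 in mRNA arrays, and the nascent medians decline from 0.32 at row 1 and 0.27 at column 1.

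The offsets of position, row and column were then subtracted within each array, an alternative chosen after the layout had been seen. With these medians centred, 32 spots had risen and 3 had fallen, or 0.622% and 0.0583% of those tested, with 682 spots at an unadjusted p under 0.05. Of the original calls 20 risers and 3 fallers passed again, 12 further spots rose and 0 further spots fell. All 47 spots called before centring kept their sign, and the median change of the 39 became 1.06 and that of the 8 became -1.004. For the 4 fallers at position 3 the median was -1.10 after centring and -1.75 before it, and for the other 4 it was -0.85 after and -0.92 before. Spots R4 - C2 : 8 and R15 - C1 : 7 changed by 2.49 and 2.26 and stayed called. R8 - C20 : 3 was at -1.43 with an adjusted p of 0.0985 and was no longer called, and R7 - C7 : 3 was at -1.15 with an adjusted p of 0.0401 (limma). Of the centred risers 10 of 32 lay in rows 1 to 4 and 11 in columns 1 to 6.

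The 47 called spots, uneven over rows, columns and positions as described, occupied 42 of the 384 blocks, and 3 blocks held 2 and 1 block held 3. The 13 other spots tested in the block of R4 - C2 : 8 had a median change of 0.39, between -0.86 and 1.70. Of these 13, 2 were called, where 47 of all 5147 spots were. After centring their median was 0.05 and 1 was called, where 35 of all spots were. R4 - C2 : 8 itself stayed at 2.49. Over all blocks with a riser, the 429 other spots had a median of 0.11, and of -0.01 after centring.

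The other times place the change at 120 min in the course of the treatment. Relative to 0 min the 39 risers had median changes of 0.40, 0.74, 1.15, 1.17 and 1.13 at 30, 60, 120, 180 and 240 min in turn. These contrasts share the 0 min arrays and the fit's residual spread, so the values stand side by side without a test of likeness. Of the 39, 2, 33 and 25 were called up at 60, 180 and 240 min in turn, where 0.0389%, 1.11% and 0.719% of all tested spots were called up. R4 - C2 : 8 was early, with changes of 1.20 and 1.85 after 30 and 60 min, then 2.36 and 2.18 after 180 and 240 min. R15 - C1 : 7 was later, with 0.09 and 1.07 after 30 and 60 min (limma adjusted p 0.999 and 0.765). It then reached 2.73 and 2.29 after 180 and 240 min. Column 1, where it lies, had a median change of -0.15 at 30 min. After centring, its log2 signal was 7.49, 7.43 and 7.74 at 30 min, against 7.16, 7.07 and 7.20 at 0 min. The value of 0.09 therefore depends on the layout. The 8 fallers had medians of -0.34, -0.72, -1.32, -1.23 and -0.96 at the 5 times in turn.

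Other contrasts take their change from no array at 120 or 0 min. Their tests, however, use the residual spread of the fit to all nascent arrays, including those at 120 and 0 min. At 180 against 30 min all 39 risers were above 0, with a median of 0.85 (all spots -0.01, with 2521 of 5144 above 0). Of the 39, 8 were called up there, where 0.292% of all spots were. At 240 against 30 min the median was 0.68, again with all 39 above 0, and 4 were called up, where 0.0972% of all spots were. The risers had been called with the same residual spread. Their median standard error at 120 against 0 min was 0.207, against 0.254 for all spots. Part of their excess of calls over all spots is therefore built in by the choice, and how much was not tested. R15 - C1 : 7 changed by 2.64 at 180 against 30 min, and R4 - C2 : 8 by 1.16, with adjusted p of 0.00152 and 0.00114 (limma). After centring, the largest change of any riser at 180 against 30 min was 2.26. At 180 and at 240 against 30 min all 8 fallers were below 0, with medians of -0.91 and -0.57, or -0.66 and -0.61 after centring. Of all spots, 2623 of 5144 and 2650 of 5145 were below 0. Position 3, which holds 4 of the 8, had median changes from 0 min of -0.15, -0.49 and -0.29 at 30, 180 and 240 min.

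No single step on either side of 120 min gave a call. At 120 against 60 min 0 of 5144 spots passed (0%), with 138 at an unadjusted p under 0.05, and the risers' median step was 0.50. At 180 against 120 min 0 of 5146 passed (0%), with 129 at an unadjusted p under 0.05, and the risers' median step was -0.01 with 17 of 39 above 0, but 0.09 with 29 above 0 after centring. The risers were chosen for high values on the 120 min arrays, which both steps use, so the choice itself raises the step before 120 min and lowers the one after it, and nothing is read from these 2 medians. At 240 against 180 min, 30 of the 39 were below 0, with a median of -0.11, or -0.23 after centring. Of all 5146 spots 2698 were below 0 in that step, with a median of -0.01. There 0 spots passed, with 72 at an unadjusted p under 0.05.

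**Figure D4:**
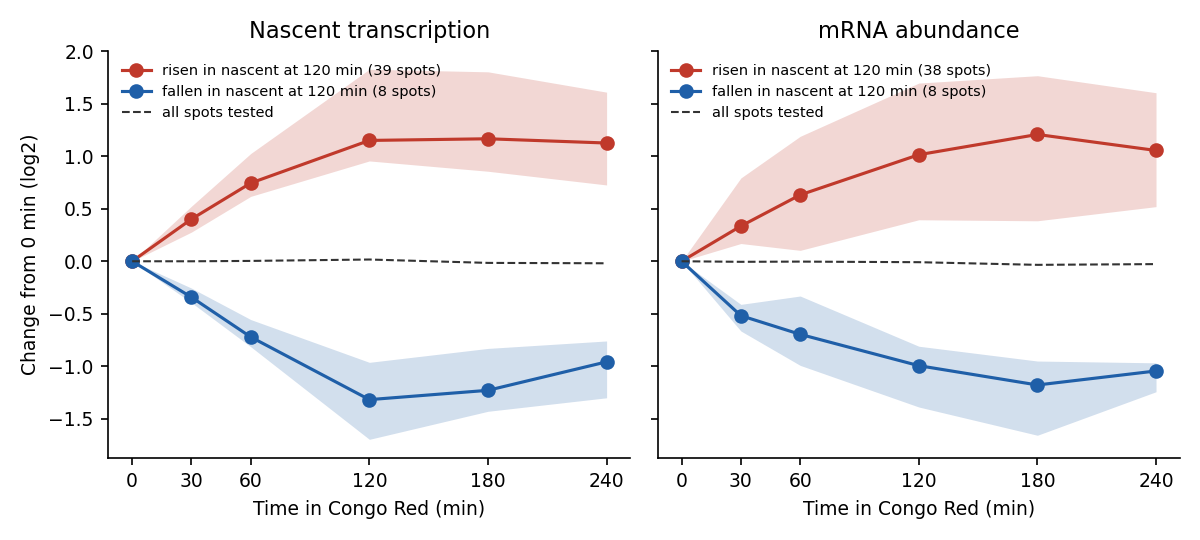
Median change from 0 min (log2, line and points; shading from the lower to the upper quartile) over time in Congo Red for the spots risen (red) or fallen (blue) in nascent transcription at 120 min, on nascent arrays (left) and mRNA arrays (right), with all tested spots as a dashed line. The risers reach 1.15 in nascent signal at 120 min and 1.01 in mRNA, and the dashed line stays near 0.

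The mRNA arrays, made from cDNA of the same times, show how far abundance moved with transcription. Of the 39 risers 38 could be tested for mRNA, and 34 of them were above 0 at 120 against 0 min, with a median of 1.01, or 2.02-fold (all spots: 2419 of 4871 above 0, median 0.00). Their range was -0.51 to 3.08. Of the 38, 13 were called up, which is 34.2%, where 0.664% of 4967 spots were called up. These 13 were 39.4% of the 33 mRNA risers. The 8 fallers had a median of -0.99 in mRNA and 7 were below 0, but 0 were called (limma, 7 at an unadjusted p under 0.05), as were 0 of all 4967 spots in the downward direction (0%). Position 3, which holds 4 of the 8 fallers, was low in mRNA as a whole, with a median of -0.64. After centring, the median mRNA change was 0.85 for the risers and -0.77 for the fallers. For the 4 fallers at position 3 it was -0.79 after centring and -1.43 before. The centred mRNA fit called 31 spots up, 13 of them risers, and 4 down, 1 of them a faller. Without centring, an unadjusted p under 0.05 was reached in mRNA by 430 spots. In these fits without a replicate block the median residual SD was 0.446 on the mRNA arrays and 0.317 on the nascent arrays. An equal change was therefore harder to call in mRNA in these fits. The mRNA value includes deviations that same-numbered mRNA arrays shared.

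Same-numbered mRNA arrays deviated together, and with the replicate number as a block 200 spots rose and 102 fell in mRNA, or 4.03% and 2.05%. Of the nascent risers 21 were then called up and of the fallers 4 were called down. Without the block the 33 mRNA calls became 13 without the second mRNA array at 120 min, 22 without the first, 15 without the second at 0 min and 18 without the third.

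Spot R4 - C2 : 8 was called up in both assays. Its mRNA intensity was 103, 213 and 53.2 at 120 min, against 17.5, 9.36 and 8.43 at 0 min, with no overlap, and the change was 2.92 ± 0.61 (SE; limma adjusted p 0.0442, and 9.38e-05 with the replicate block). R15 - C1 : 7 changed by 1.58 ± 0.49 in mRNA (limma adjusted p 0.259), R8 - C20 : 3 by -1.35 and R7 - C7 : 3 by -1.70, and none of these passed without the block. With the replicate block all 3 passed, with adjusted p of 0.00168 for R15 - C1 : 7, 0.0334 for R8 - C20 : 3 and 0.0347 for R7 - C7 : 3 (limma), the last 2 at position 3. Across all 4871 spots measured in both assays the 2 changes had r = 0.55, and 0.46 after centring. Both assays share the array layout and the position 3 offset, and spots are not independent replicates.

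The difference between the nascent and the mRNA change was tested directly. It passed for 1 of 4871 spots upward (0.0205%) and for 0 downward (0%), with 70 at an unadjusted p under 0.05 (limma over 36 arrays). For the risers the nascent change exceeded the mRNA change in 22 and fell short of it in 16, with a median difference of 0.25. The risers were chosen for a high nascent change on these arrays, which by itself raises this difference, so its side is no result. The 1 called spot was a nascent riser, and the call was lost without the second nascent array at 120 min, without the first at 0 min, and without the second mRNA array at 120 min, each of which left 0 calls. Leaving out the first mRNA array at 120 min gave 3.

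The authors' deposited table gives 1 synthesis rate per spot and time, in which the nascent rate was normalised to cell volume, with a factor of 1.17 at 120 min. How the factor and the scaling were applied is not given in the sources used here. In that table by the authors, as deposited, 4806 member spots have a value at both times, and the mean at 120 min was 0.823 times that at 0 min. The median of the spot ratios was 0.804, and 79.8% of spots were lower at 120 min. Multiplied by the factor, the ratio of means from the authors' deposited table became 0.963 and 59.1% of spots were lower. The deposited array totals, summed before any normalisation, were 1.57 times higher at 120 min, but those groups overlapped. They are a different measure from volume-normalised rates, so the 2 values are not directly comparable.

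Spot by spot the table followed the arrays, whose replicates it combines. Across the 4806 spots the log2 ratio from the authors' deposited table had r = 0.92 with the fitted change. It lay lower by a median of 0.34 on the log2 scale, where the factor alone is 0.23, and the SD of the difference was 0.19. All 39 risers had a ratio above 1 in the authors' deposited table, with a median of 1.80 and a range of 1.20 to 5.50. All 8 fallers were under 1 there, with a median of 0.33. The spots were chosen on the same arrays, so their side in that table is no separate result. R4 - C2 : 8 had a synthesis rate of 0.383 at 120 min and 0.0696 at 0 min in the authors' deposited table, and R15 - C1 : 7 had 0.571 at 120 min and 0.135 at 0 min. R8 - C20 : 3 had 0.0335 at 120 min and 0.167 at 0 min in the authors' deposited table, and R7 - C7 : 3 had 0.0174 at 120 min and 0.0947 at 0 min. The 39 risers held 2.17% of the summed synthesis rate at 120 min and 0.849% at 0 min in the authors' deposited table. Position 3 stood apart there too, with a median ratio of 0.492 over 328 spots in the authors' deposited table, against 0.819 at the other positions.

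**Figure D5:**
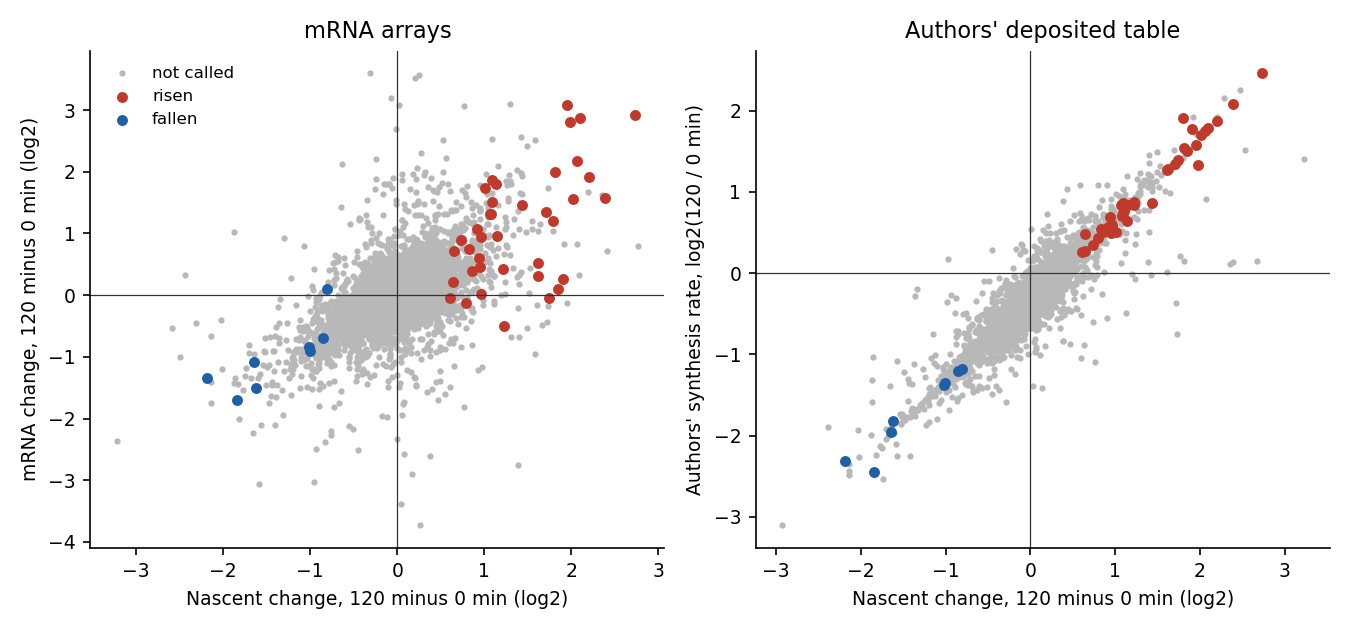
Nascent change at 120 minus 0 min (log2, horizontal axis) against the mRNA change (left) and against the log2 synthesis rate ratio of the authors' deposited table (right), 1 point per spot, with risers in red and fallers in blue. The mRNA of 34 of 38 risers lies above 0, and in the table all 39 risers lie above 0 and all 8 fallers below it. The table combines the replicates of the nascent arrays on which the spots were chosen, so their side there is no separate result.

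Of the 6144 spots, 997 were left out of the comparison. On all 6 arrays 795 of them were listed at 0, and 702 were at 0 on all 18 nascent arrays. At least 2 values above 0 at 120 min but fewer at 0 min were found for 63 spots, with a median intensity of 1.16 and a highest value of 19.3. The reverse held for 22 spots, with a median of 0.751 and a highest value of 12.9. These spots are dim beside the named ones, and a change at such levels would not appear among the 39 or the 8.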

How the data were processed

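The array files hold 1 intensity per spot as deposited by the authors, with no gene name, flag or background column. For the scanner, software, background treatment and the reason for values of 0, nothing is stated in the sources. The authors' deposited table holds 1 signal per spot, time and measure, with the replicates combined. All 12 of its columns were mapped.

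Zeros were set to missing and intensities were taken to log2 with no pseudocount. The 18 nascent arrays were quantile normalised and fitted with time as a factor in limma 3.58.1 (R 4.3.3), with Benjamini-Hochberg adjustment over all tested spots and a threshold of 0.05. The mRNA arrays were treated alike, and the difference between assays was fitted over 36 arrays with weights per assay. Figures were made with Python 3.11.15 and matplotlib 3.10.9. The nascent fit was tested on simulated data with independent spread for each spot and array. Those data held no layout offsets and no deviations shared by same-numbered arrays, so the test does not cover either. No 2 of the 630 array pairs held identical values. The number of arrays limits the precision.

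The members, lists and tests were chosen with earlier results of these data known. The planned gene lists were not run, because no spot could be named. The rule for named items took the largest called changes without overlap between arrays, limited to 2 rises and 2 falls. Replicate numbers come from the numbering of the array files. Same-numbered nascent arrays at 120 and 0 min deviated together by 0.487, -0.131 and 0.431 (correlation across spots). Over all times 14 of the 45 nascent pairs were at or below 0.1. This pairing is partial, and the main fit leaves it out. All 45 mRNA pairs lay between 0.611 and 0.845, which pairs them from the data and not from the labels. Alternatives covered normalisation, layout, filters, weights, blocks and single arrays.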

Additional observations from a re-analysis of the deposited data

Results flagged for a closer look

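For 1 spot the nascent change at 120 min exceeded the mRNA change by 1.75 on the log2 scale, the only one of 4871 to pass limma's test of that difference (adjusted p 0.0159). Its nascent change was 1.85 and its mRNA change 0.10.

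Outside the comparison, 6 spots were above 0 on all 3 arrays at 120 min and listed at 0 on all 3 at 0 min, and 2 spots were the reverse. They were not tested, and no fold can be given against a group at 0.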

How the results depend on the processing

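The sign of the named changes, and of the 47 calls wherever they were tested, held in all 23 settings, and the counts did not. None of the 47 had overlap between the arrays at 120 and 0 min. Leaving out or reweighting arrays could therefore hardly turn a sign, and nothing is read from it. With main counts of 39 risers and 8 fallers, median scaling gave 57 and 9, no normalisation 1 and 0, the 6 arrays alone 9 and 0, centred positions 54 and 13, and leaving out the dimmest of 4 signal bins 67 and 20. Array weights gave 299 and 245, so 55.0% of calls were rises, against 83.0% without weights. Leaving out 1 array gave 17 to 53 risers and 1 to 8 fallers. The replicate numbers paired the nascent arrays only in part, with 14 of 45 same-numbered pairs at or below 0.1. With the replicate block 116 spots rose and 45 fell in nascent transcription. The block also gave 2 calls at 120 against 60 min (0 without it) and 302 in mRNA (33 without it). In the difference between assays it gave 2 (1 without it). Among settings chosen after seeing the data, centring positions, rows and columns left 3 fallers, with the block added it gave 83 risers and 19 fallers, and with array weights 188 and 142. Leaving out 1 array gave 13 to 27 mRNA calls and 0 to 3 calls in the difference. The ratio of mean synthesis rates, 0.823, became 0.963 with the volume factor, and 0.804 as the median of spot ratios. The causes were not tested. With 3 arrays a group and a median residual SD of 0.317, changes under about 1.14 at the median standard error were not called, and rises and falls common to all spots cannot be seen after quantile normalisation.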
